A study of Mus musculus with 2 samples.

Results

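Edar-expressing dental epithelial cells were chosen by their measured UMI counts, as barcodes that carried at least 1 unique molecular identifier (UMI) of Edar together with epithelial transcripts. A barcode entered the epithelium when it had at least 500 detected genes, at most 20% mitochondrial UMIs and at least 3 UMIs summed over Epcam, Cdh1, Krt5, Krt14 and Perp. It was left out when Col1a1, Col1a2 and Col3a1 together exceeded 100 of 10000 UMIs, or when Amelx, Ambn and Enam together reached 100 of 10000. This gave 318 Edar-positive cells among 3536 epithelial cells, from 30019 barcodes in all. The control library held 225 Edar-positive and 1761 Edar-negative epithelial cells, and the deletion library 93 and 1457.

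The cells came from dissociated tooth germs of newborn mice and were captured on the BD Rhapsody system, which reads a tag of each transcript in single cells. The control group was Edarfl/fl, in which Edar carries loxP sites and no Cre is present. The deletion group was K14cre;Edarfl/fl, in which the keratin 14 promoter drives Cre in epithelium, so that both groups share the floxed allele. Each group was 1 library with no replicate, and the number of pups in a library is not given in the sources used here. Differences between groups therefore have no replicate check, and every interval below is a 95% interval that covers counting error only.

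Edar is the epithelial receptor of ectodysplasin A. On ligand binding it recruits the adaptor Edaradd, which acts through TRAF proteins and the IKK complex to release NF-kB. In the molar the receptor marks the enamel knot, a compact signalling centre of the inner enamel epithelium that leaves the cell cycle, expresses Cdkn1a and secretes Shh, FGF, BMP and Wnt ligands. The epithelium folds around the knots, and their positions become the cusps. Loss of ectodysplasin signalling gives small enamel knots and flattened crowns.

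The promoters of Edar and of Wnt10b and Kremen2, which had the highest log2 ratios among the genes called higher in both libraries (ranked by the ratio nearer 0 of the libraries), are shown to give the sequence context of the genes that mark these cells. They are the 250 bases before the RefSeq start (GRCm38.p6), all on minus strands, for Edar at chr10:58675697-58675946, for Wnt10b at chr15:98778151-98778400 and for Kremen2 at chr17:23745830-23746079. Capitals mark matches, on either strand, to the TCF/LEF core CTTTGA or to the κB consensus.
Edar: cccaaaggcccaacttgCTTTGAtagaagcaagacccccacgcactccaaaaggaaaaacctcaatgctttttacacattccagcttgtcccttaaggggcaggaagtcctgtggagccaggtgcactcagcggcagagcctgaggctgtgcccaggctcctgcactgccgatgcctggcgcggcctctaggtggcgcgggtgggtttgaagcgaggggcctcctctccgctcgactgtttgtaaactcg
Wnt10b: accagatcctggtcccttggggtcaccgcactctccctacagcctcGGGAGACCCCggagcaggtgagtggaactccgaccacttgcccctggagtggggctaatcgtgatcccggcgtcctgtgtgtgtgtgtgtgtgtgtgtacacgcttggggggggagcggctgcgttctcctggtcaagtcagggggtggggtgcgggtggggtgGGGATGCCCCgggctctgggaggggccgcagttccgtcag
Kremen2: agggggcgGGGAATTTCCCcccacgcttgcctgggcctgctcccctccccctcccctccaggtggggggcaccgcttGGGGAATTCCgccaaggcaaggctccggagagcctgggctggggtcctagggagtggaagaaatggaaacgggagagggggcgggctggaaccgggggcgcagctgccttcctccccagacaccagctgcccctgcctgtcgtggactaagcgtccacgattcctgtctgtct
The Edar window held 1 TCF/LEF match and 0 κB matches. Wnt10b held 2 κB matches, and Kremen2 held 3, of which a pair overlaps, with 0 TCF/LEF matches in either window. Of the 35 genes higher in Edar-positive cells of both libraries, 25 had entries, with 31 promoters. The κB consensus was found in 4 of these promoters (12.9%), of Enpp1, Kcnmb4, Kremen2 and Wnt10b, and in 3.90% of all 32851 promoters of that length. The TCF/LEF core was found in 7 (22.6%), Lef1 and Dach1 among them, against 13.8% of all. For the 25 genes lower in both libraries, 17 genes had 23 promoters, of which 1 (4.35%) held the κB consensus and 3 (13.0%) the TCF/LEF core. The GLI core GACCACCC was found in 0 of the 31 and in 0.703% of all. A match is a description of the letters and was not tied to binding.

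Edar-positive cells made up 11.3% of epithelial cells in the control library (interval 9.97 to 12.8%) and 6.0% in the deletion library (4.87 to 7.30%). Median depth differed between the libraries, with 4111 UMIs per epithelial cell in control cells and 3317.5 in deletion cells. With every cell thinned to 2000 UMIs, which left out 204 and 250 shallower cells, the shares were 7.13% (127 of 1782 cells, 5.98 to 8.42%) and 4.08% (53 of 1300, 3.07 to 5.30%). Endothelial cells, which should lack the receptor, gave 0.318% (4 of 1256 cells, median 3278.5 UMIs) and 0.386% (4 of 1036, median 3143 UMIs), and 2 of 993 and 0 of 813 after thinning. The shares in epithelium thus stood above this background in both libraries. Another 78 of 11158 and 80 of 13670 cells without the epithelial sum carried an Edar UMI and were not included, nor were 9 and 6 removed for collagen and 2 and 1 for enamel transcripts. The counted tags need not cover the floxed exon, so an Edar UMI in the deletion library does not show that the receptor is made.

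Most of these cells were called by a single molecule. In the control library 147 cells had 1 Edar UMI, 50 had 2, 20 had 3, 5 had 4, 2 had 5 and 1 had 6. In the deletion library 67 had 1, 22 had 2 and 4 had 3. Cells with exactly 1 UMI, just inside the threshold, were 65.3% and 72.0% of all Edar-positive cells. Cells with 0 UMIs, just outside it, may still express the gene below this depth. Summed over the cells, Edar stood at 304 CPM (counts of the gene per 1000000 UMIs of the summed cells) in control cells and 303 CPM in deletion cells, a level that the rule fixes. Depth differed little between the compared cells, with medians of 4034 and 4124 UMIs in control Edar-positive and Edar-negative cells, and of 3670 and 3311 in the deletion library. The mitochondrial share was 8.30% and 6.87% in control cells and 8.64% and 8.49% in deletion cells. No Edar-positive cell shared its barcode with the other library, in which 4 barcodes recurred overall. Scrublet called 1 doublet among them in each library.

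Where these cells lay was read from 14 sub-clusters of all epithelial cells, computed without Edar. The richest sub-cluster was led by Wnt10b, Megf11, Ltb, Kremen2, Stap1 and Mymx and was called enamel knot-like. Of 11 knot markers, 4 were each detected in at least 25% of its cells, and 1 was among its 10 leading genes. Of 8 inner enamel epithelium markers, 6 were detected as well. In control cells Cdkn1a stood at 171 CPM here and 297 CPM in sub-cluster 0, described below. Wnt10b (603 and 21.0 CPM) and Fgf9 (304 and 103 CPM) went the other way. The enamel knot-like sub-cluster held 131 control cells, of which 67 were Edar-positive (51.1%, 42.3 to 60.0%). Of its 79 deletion cells 29 were Edar-positive (36.7%, 26.1 to 48.3%). After thinning the shares were 33.6% and 27.1%. This sub-cluster took 29.8% of the control Edar-positive cells (23.9 to 36.2%) and 31.2% of those with the deletion (22.0 to 41.6%), against 3.63% and 3.43% of Edar-negative cells. About the same portion of Edar-positive cells was therefore enamel knot-like in both libraries, and most lay elsewhere.

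The largest group of Edar-positive cells outside it, 75 of 417 control cells (18.0%) and 28 of 278 deletion cells (10.1%), was in sub-cluster 0, led by Aldh1a7, Aldh1a1, Ecel1, Rprm and Nr2f2, which stayed unnamed. Sub-cluster 9, led by the mitotic genes Ube2c, Hmmr, Ckap2l and Ccnb1, was called inner enamel epithelium-like. Of the 8 markers 5 were detected, but none was among its 10 leading genes. The marker score was 0.18, against 0.02 for the enamel knot. The name was not kept at a Leiden resolution of 1.0. There the sub-cluster led by Ube2c, Ccnb1 and Ckap2l scored 0.09 for the enamel knot and 0.06 for inner enamel epithelium, and stayed unnamed. Sub-cluster 9 gave 30 of 105 (28.6%) and 8 of 55 (14.5%). The outer enamel epithelium-like sub-cluster 1, led by Fat2, Krt79, Thbs2 and Smoc2, gave 17 of 96 (17.7%) and 7 of 125 (5.6%). In each of these 4 sub-clusters the share was lower in the deletion library. Before thinning, only for sub-cluster 0 did the intervals not overlap (14.4 to 22.0% and 6.80 to 14.2%). At a depth of 2000 UMIs its shares were 10.3% (7.48 to 13.7%) and 6.22% (3.53 to 10.1%), with overlapping intervals. Oral keratinocyte-like cells, led by Krt4 and Krt13, held 0 of 58 and 1 of 67, and the sub-cluster led by Calb1, Dspp and Amelx held 5 of 283 and 1 of 164. The sub-clusters led by genes of endothelium, mesenchyme and leukocytes held 7 control and 3 deletion Edar-positive cells.

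**Figure D1:**
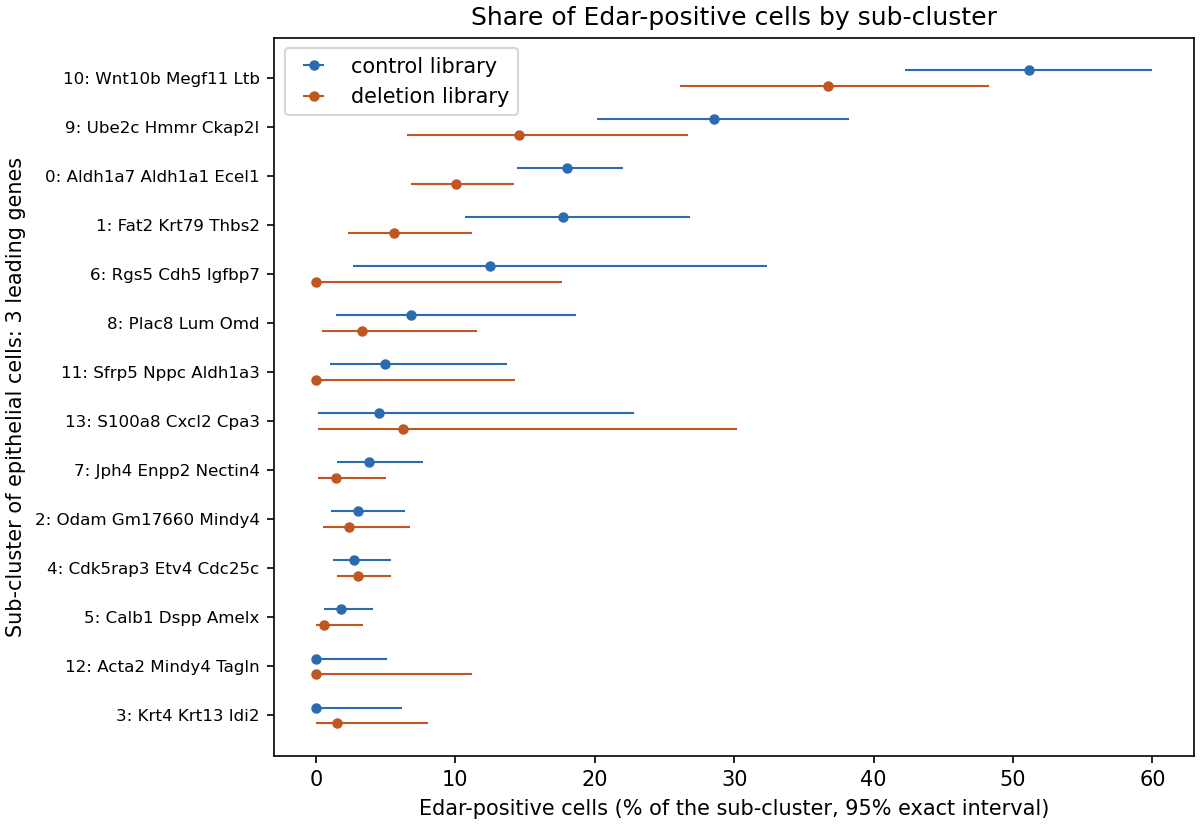
Share of cells with an Edar UMI in each of the 14 sub-clusters (vertical axis, with 3 leading genes) as a percentage of the sub-cluster (horizontal axis), with exact 95% intervals, in the control (blue) and deletion (orange) libraries. The enamel knot-like sub-cluster 10 stands highest, at 51.1% and 36.7%, and the oral keratinocyte-like sub-cluster 3 at 0 and 1.49%.

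A gene was called higher or lower when it reached 50 CPM in 1 of the 2 sums, when the ratio of CPM + 5 passed 2-fold and the count ratio's interval left out 1. No p-value exists with 1 library in each group. In the control library 49 of 3727 genes were higher (1.31%) and 51 lower (1.37%) in Edar-positive than in Edar-negative epithelium. In the deletion library 58 of 3671 were higher (1.58%) and 72 lower (1.96%). Both libraries called 35 genes higher, which is 71.4% of the control calls and 60.3% of the deletion calls, and 25 lower, 49.0% and 34.7%. Among 3441 genes measured in both, these are 1.02% and 0.727%. Of the control calls, 47 of 49 higher genes and 50 of 51 lower genes had the same sign in the deletion library.

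**Figure D2:**
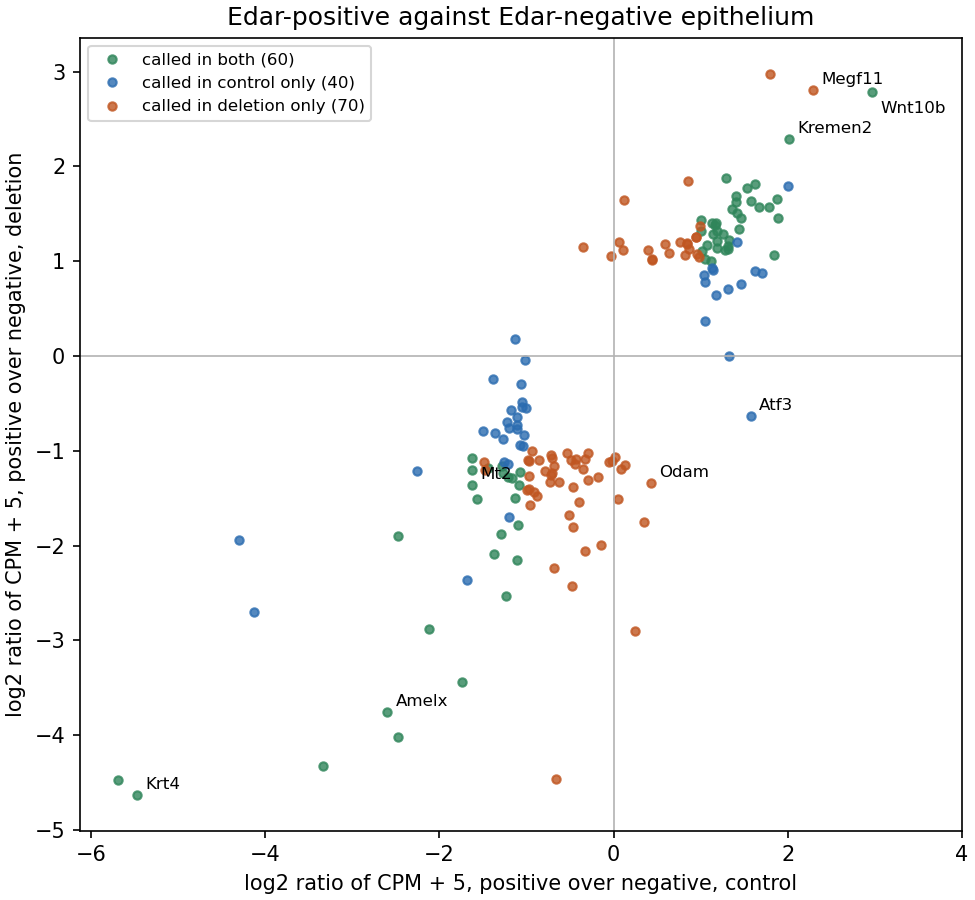
Log2 ratio of CPM + 5, Edar-positive over Edar-negative epithelial cells, in the control (horizontal) and deletion library (vertical), for genes called in at least 1 library and coloured by where they were called. Wnt10b lies at the upper right at 2.97 and 2.79, whereas Atf3 and Odam lie above 0 in control cells and below 0 in deletion cells.

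Wnt10b, a canonical Wnt ligand of dental placodes and enamel knots, had the highest log2 ratio among genes called higher in both libraries, ranked by the ratio nearer 0. It stood at 211 CPM (238 UMIs, 185 to 240) in control Edar-positive cells and at 22.7 CPM in Edar-negative cells, a log2 ratio of 2.97, with a count ratio between 7.67 and 11.3. In the deletion library it stood at 136 CPM (55 UMIs, 102 to 176) and 15.4 CPM, a log2 ratio of 2.79. A Wnt10b UMI was present in 37.8% of control Edar-positive cells and 6.25% of Edar-negative cells, and in 23.7% and 3.71% in the deletion library. At equal depth of 2000 UMIs these shares were 28.6% and 4.14%, and 16.7% and 2.88%. A single deletion cell held 13 of the 55 UMIs, and without it the log2 ratio was 2.44.

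Other members of the Wnt pathway followed. Kremen2, a receptor of the Wnt inhibitor Dkk1, stood at 69.2 CPM against 13.4 CPM in the control (log2 ratio 2.01) and at 69.0 against 10.1 CPM in the deletion library (2.29). Lef1, a transcription factor of the pathway, stood at 84.3 against 20.9 CPM (1.79) and at 91.2 against 27.4 CPM (1.57). Apcdd1, a membrane inhibitor of Wnt signalling, had log2 ratios of 1.84 and 1.07. Axin2, a common response gene, was called in the control (69.2 against 28.9 CPM, 1.13) and fell short in the deletion library (56.7 against 27.4 CPM, 0.93), and the ligand Wnt5a the other way round (0.96 and 1.08). In all, 5 of the 40 listed Wnt genes were higher in each library and 0 lower. Of the 40, 22 in control cells and 23 in deletion cells reached 50 CPM. Over all genes at that level 1.31% and 1.58% were higher. The list's median log2 ratio was 0.36 and 0.26 over members with at least 5 CPM, against -0.03 and -0.02 over all genes. Fzd3, a Wnt receptor, lay the other way at 119 against 186 CPM and 116 against 179.6 CPM.

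Of the other pathways, FGF had 2 members called higher. Fgf9, an epithelial mitogen for the dental papilla, stood at 170.3 against 50.3 CPM (log2 ratio 1.66) and 195 against 62.1 CPM (1.57). Spry2, a feedback inhibitor of FGF receptors, was at 132 against 50.2 CPM and 128 against 55.7 CPM. These were the 2 called of 24 FGF genes in each library. Of the 24, 6 in control cells and 9 in deletion cells reached 50 CPM. Over all genes at that level 1.31% were higher and 1.37% lower in control cells, and 1.58% and 1.96% in deletion cells. The Hedgehog response genes Ptch1 (217 against 179 CPM and 175 against 177 CPM) and Gli1 (109.99 against 92.4 CPM and 98.6 against 91.3 CPM) differed by less than 2-fold. Of 28 BMP genes, 17 in control cells and 15 in deletion cells reached 50 CPM. Of these, 0 were called in control cells, and Bmp7 was called higher in deletion cells (197 against 87.4 CPM, 1.13). In the control Bmp7 stood at 177 against 94.9 CPM (0.87). Of 18 Notch genes, of which 5 reached 50 CPM in each library, 0 were called in either. At the shares over all genes, so few calls do not set the BMP or Notch list apart. Lfng, which modifies Notch receptors, stood at 102 against 54.8 CPM and 101 against 56.0 CPM, and Notch1 at 8.87 against 32.4 CPM and 14.8 against 36.8 CPM.

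For the receptor's own pathway few members could be called. Of 16 listed EDA pathway genes other than Edar, 6 in control cells and 5 in deletion cells reached the 50 CPM needed for a call, and 0 were called. Over all genes at that level 1.31% were higher and 1.37% lower in control cells, and with the deletion 1.58% and 1.96%, so that 0 calls among so few genes does not set the list apart. The median log2 ratio of the measured members was 0.12 and 0.02. The adaptor Edaradd stood at 112 against 88.2 CPM (log2 ratio 0.33, count ratio 1.04 to 1.53) in the control and at 150.4 against 93.2 CPM (0.66, 1.22 to 2.11) in the deletion library. Tnfrsf19, a related receptor, had log2 ratios of 0.66 in both (255 against 160 CPM and 246 against 154 CPM). The ligand Eda was low in epithelium, at 10.6 against 8.75 CPM and 22.2 against 11.9 CPM. The signal transducers Traf6 (38.1 against 27.8 CPM and 32.0 against 28.8 CPM), Map3k7 (78.1 against 79.9 CPM and 54.2 against 68.6 CPM) and Chuk (56.8 against 47.3 CPM and 59.2 against 39.4 CPM) had count ratio intervals that included 1 in both libraries. Ikbkb, a catalytic IKK subunit, rested on few molecules in the deletion library, with 5 UMIs (12.3 against 29.8 CPM). Tab2, a partner of the kinase Map3k7, stood at 122 against 134 CPM and 106 against 124 CPM. The remaining 8 members lay between 1.77 and 59.4 CPM in control Edar-positive cells and between 2.46 and 37.0 CPM in deletion Edar-positive cells.

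Of the NF-kB subunits and feedback genes, 11 were measured in control cells and 12 in deletion cells, but 3 and 2 reached 50 CPM. None of these was called, which at the same shares over all genes says nothing particular to the list. Nfkbia, which encodes the inhibitor IκBα and is itself induced by NF-kB, stood at 259.9 against 157 CPM in the control (log2 ratio 0.71, count ratio 1.46 to 1.88) and at 227 against 179.96 CPM in the deletion library (0.33, 1.01 to 1.56). Tnfaip3 (27.5 against 16.8 CPM and 24.6 against 13.96 CPM) and Relb (21.3 against 11.4 CPM and 12.3 against 10.5 CPM) were below the level required for a call. Among 15 genes known as EDAR targets in ectodermal organs, Wnt10b and Ccn2 were higher in both libraries and 0 were lower. Of the 15, 7 reached 50 CPM in each library, and over all genes at that level 1.31% and 1.58% were higher. Ccn2, a matricellular protein, stood at 145 against 51.7 CPM and 199.7 against 58.5 CPM. The list's median log2 ratio was 0.64 in the control, with 11 of 12 measured members above 0, and 0.35 in the deletion library, with 10 of 12 above 0. Sostdc1, an inhibitor of BMP and Wnt signals, had 694 against 551 CPM and 648 against 520 CPM. Dkk4 had 1 UMI in control and 0 in deletion Edar-positive cells, and Foxi3 0 and 1.

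Signals and markers of the enamel knot gave 3 calls of 19 listed genes in the control (Wnt10b, Fgf9 and Lef1). In the deletion library they gave 4 (the same with Bmp7), and all calls were higher. Of the 19, 11 and 10 reached 50 CPM, and over all genes at that level 1.31% and 1.58% were higher. The list's median log2 ratios were 0.50 and 0.65. Shh, the Hedgehog ligand of the inner enamel epithelium and its knots, stood at 687 against 463 CPM (log2 ratio 0.56) and at 658 against 328.5 CPM (0.99). Cdkn1a, an inhibitor of cyclin-dependent kinases that marks knot cells, stood at 202 against 172 CPM (0.23) and 185 against 119 CPM (0.62). Msx2, a homeobox gene of knots and other epithelium, had nearly equal levels, at 362 against 358 CPM and 232 against 236 CPM. Fgf4, the classical marker of secondary knots, had 15 UMIs in control Edar-positive cells (13.3 CPM against 0.48 CPM in Edar-negative cells, count ratio 8.84 to 115), held by 10 cells, and 2 UMIs in 1 deletion cell. Fgf20 was at 9.76 against 8.99 CPM and 7.39 against 6.98 CPM. Of the genes given with the rule as markers of Edar-expressing epithelium, Wnt10b alone passed 2-fold, while Edaradd and Cdkn1a lay above 0 without reaching it.

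Genes outside these lists also led the contrast. Barx2, a homeobox transcription factor, stood at 106 against 25.05 CPM and 93.7 against 26.2 CPM. Kif26b, a kinesin family member, stood at 112 against 32.8 CPM and 148 against 38.6 CPM, and Ecel1, an endothelin-converting enzyme-like peptidase, at 287 against 93.2 CPM and 239 against 73.3 CPM. Enpp1, which makes the mineralization inhibitor pyrophosphate, stood at 129.5 against 31.3 CPM and 138 against 47.0 CPM. Dach1, a transcriptional regulator, was at 201 against 72.3 CPM and 232 against 78.4 CPM. Several genes better known from excitable cells were among the 15 leading genes, namely Cacna2d3, a calcium channel subunit (log2 ratios 1.53 and 1.77), Kcnmb4, a potassium channel subunit (1.40 and 1.63), Dab1, an adaptor of reelin signalling (1.35 and 1.55), and Pclo, a presynaptic scaffold (1.44 and 1.34). In each of the 35 shared genes no control cell held over 20% of the UMIs, and in 3 of them a single deletion cell did.

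**Figure D3:**
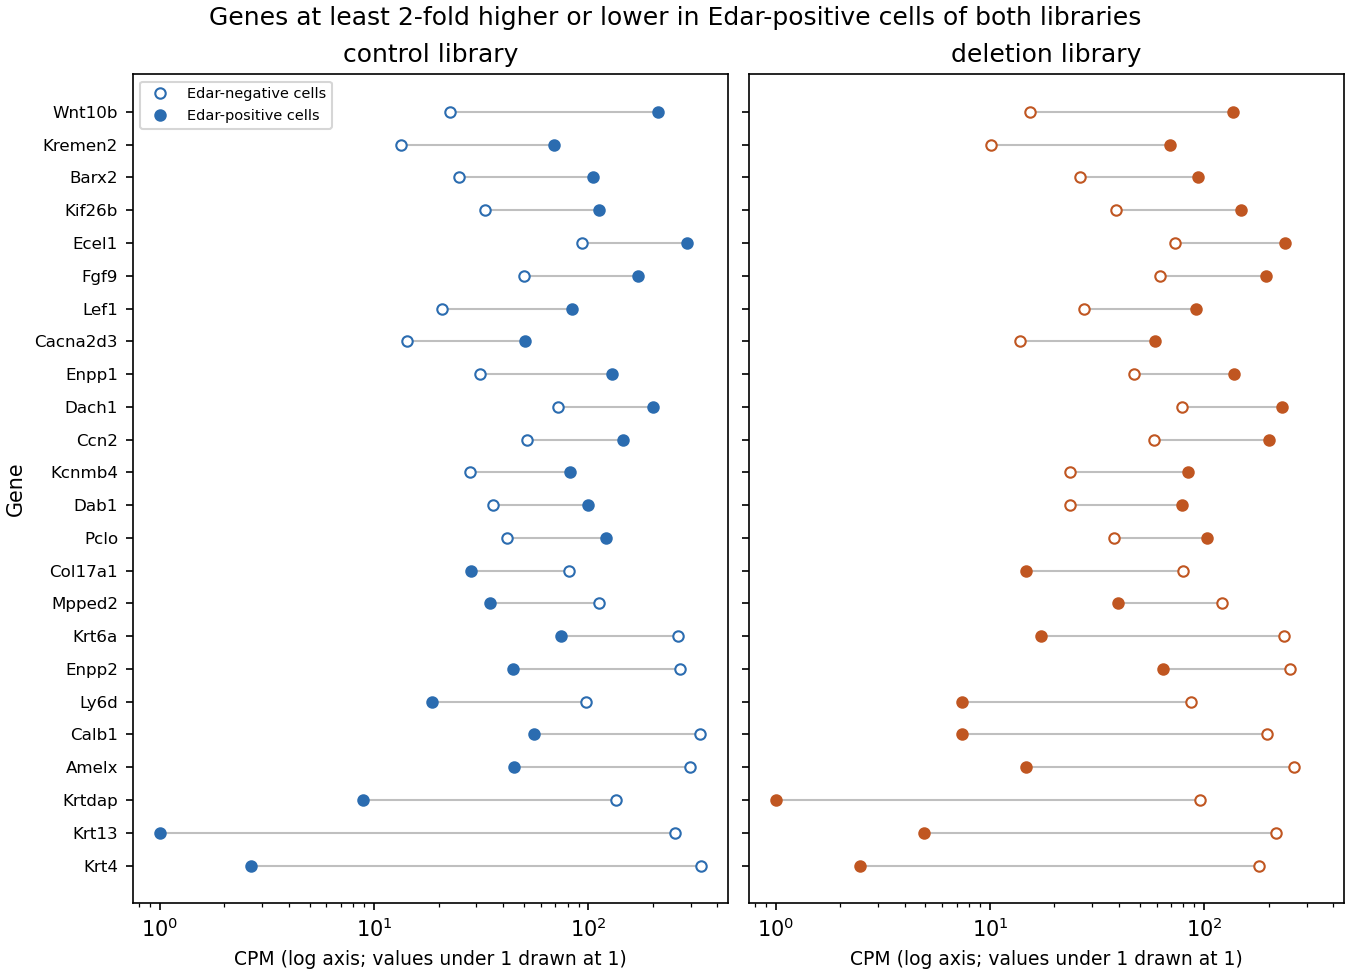
CPM on a log axis in Edar-positive (filled) and Edar-negative cells (open) for leading genes higher or lower in both libraries, control at left and deletion at right. Wnt10b, at the top, stands at 211 against 22.7 CPM and 136 against 15.4 CPM, and Krt4, at the bottom, at 2.66 against 335 CPM and 2.46 against 179.8 CPM. Krt4 UMIs were present in only 1.59% and 2.54% of the Edar-negative cells.

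Of the 10 oral keratinocyte markers, 6 reached 50 CPM in control cells and 5 in deletion cells. Of these, 4 and 3 were called lower in Edar-positive cells. Over all genes at that level 1.37% and 1.96% were lower. The same markers name the oral keratinocyte-like sub-cluster, in which 0 of 58 control and 1 of 67 deletion cells were Edar-positive. Krt4 and Krt13, the keratins of suprabasal mucosa, stood at 335 and 253 CPM in control Edar-negative cells, and at 3 and 0 UMIs in Edar-positive cells. Counted as if it had 3 UMIs, Krt13 was 95.3-fold lower there, and the upper end of its count ratio interval was 0.0129. In the deletion library Krt4 had 1 UMI and Krt13 2 UMIs, against 179.8 and 216 CPM. These levels in Edar-negative cells rested on a small share of the cells. A Krt4 UMI was present in 1.33% of Edar-positive and 1.59% of Edar-negative control cells, and in 1.08% and 2.54% in the deletion library. For Krt13 the shares were 0 and 3.35%, and 2.15% and 5.01%. Krtdap, of differentiating keratinocytes, had 10 UMIs (8.87 against 135 CPM) in control cells and 0 UMIs against 95.3 CPM in deletion cells. Counted as 3 UMIs, the latter was 12.9-fold lower, and the upper end of the count ratio interval was 0.0957. Amelx, the main enamel matrix gene, stood at 45.2 against 299 CPM and 14.8 against 263 CPM, although the rule caps enamel transcripts in both groups of cells. Col17a1, a hemidesmosomal collagen, stood at 28.4 against 81.1 CPM and 14.8 against 79.4 CPM.

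Some low levels rested on single cells. Calb1, a calcium-binding protein of ameloblast-lineage cells, stood at 55.9 against 333 CPM in the control, where 1 cell held 43 of 63 UMIs, and at 7.39 against 195.5 CPM in the deletion library. Ly6d had 20 of 21 control UMIs in 1 cell, and Krt6a 42 of 84. Enpp2, which makes lysophosphatidic acid and leads the sub-cluster of Jph4 and Nectin4, stood at 44.4 against 269 CPM and 64.1 against 252 CPM. Of 14 keratins, 9 reached 50 CPM in each library. Over all genes at that level 1.31% and 1.58% were higher and 1.37% and 1.96% lower. Krt18, a simple-epithelial keratin, was higher in both libraries (114 against 42.7 CPM and 101 against 42.6 CPM). Krt4, Krt13, Krt15 and Krt6a were lower in both. Krt5 (929.6 against 1111 CPM and 776 against 899 CPM) and Krt14 (687 against 615 CPM and 626 against 605 CPM) differed by less than 2-fold. Of 29 adhesion genes, 18 reached 50 CPM in each library. Cdh1, Col17a1 and Nectin4 were lower in both libraries and Jup and Pkp1 in the deletion library alone. Cdh3, P-cadherin, stood at 225 against 158 CPM and 291 against 154 CPM. Cdh1 counts toward the epithelial sum of both groups of cells.

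Of 28 transcription factors of dental epithelium, 16 reached 50 CPM in each library and 0 were called. Over all genes at that level 1.31% were higher and 1.37% lower in control cells, and 1.58% and 1.96% in deletion cells. At these shares 0 calls does not set the list apart. Sp6, a factor of dental epithelium, stood at 598 against 835 CPM and 722 against 726 CPM. In the control, 22 of 25 measured factors lay below 0, with a median log2 ratio of -0.41, and in the deletion library 18 of 25, with a median of -0.18. Satb1, a chromatin organizer, was among the lower ones, at 233 against 418 CPM and 182 against 319 CPM. Marker sums of mesenchyme, endothelium, macrophages and neutrophils were lower in Edar-positive than in Edar-negative cells of both libraries, and their part in the results was not tested. The 10 mesenchyme markers summed to 1558 against 1690 CPM and 1306 against 1633 CPM, the 7 endothelial ones to 39.9 against 49.7 CPM and 32.0 against 79.8 CPM, and the 7 macrophage ones to 45.2 against 139 CPM and 27.1 against 65.6 CPM. The 6 neutrophil markers summed to 4.44 against 5.63 CPM in control cells and 4.93 against 235 CPM in deletion cells, where S100a8 was at 0 UMIs in Edar-positive cells. Without the sub-clusters of endothelium, mesenchyme and leukocytes, 47 genes were higher and 55 lower in control cells and 65 and 63 in deletion cells.

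Genes of the G2 and M phases lay mostly below their levels in Edar-negative cells. Of 26 G2 and M phase genes, 17 in control cells and 13 in deletion cells reached 50 CPM. Over all genes at that level 1.37% and 1.96% were lower. All 26 G2 and M phase genes lay below 0 in the control with 0 called lower (median log2 ratio -0.66). In the deletion library 23 of the 26 lay below 0 (median -0.48). There 3 were called lower, namely Mki67, Ccnb1 and Kif23. At a depth of 2000 UMIs, cells with at least 2 UMIs of the 26 genes were counted. They were 32.4% of control Edar-positive cells (69 of 213, 26.2 to 39.1%) and 36.1% of Edar-negative cells (33.7 to 38.5%). In the deletion library the shares were 27.4% (23 of 84, 18.2 to 38.2%) and 41.3% (38.5 to 44.1%). Without thinning they were 42.7% and 45.0%, and 40.9% and 48.2%. The enamel knot-like sub-cluster had low shares whether or not its cells carried Edar. Its Edar-positive cells had 11 of 63 in the control (17.5%, 9.05 to 29.1%) and 1 of 25 with the deletion (4.0%, 0.101 to 20.4%), and its Edar-negative cells 2 of 62 (3.23%, 0.393 to 11.2%) and 5 of 45 (11.1%, 3.71 to 24.1%). Edar-positive cells elsewhere had 38.7% and 37.3%, close to the 37.4% and 42.4% of Edar-negative cells elsewhere. Cdkn1c, another inhibitor of the cell cycle, stood at 121 against 79.2 CPM and 101 against 82.9 CPM.

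Much of the contrast followed the sub-clusters. When Edar-negative cells were weighted to the sub-cluster shares of Edar-positive cells, 7 genes were higher and 2 lower in control cells and 10 and 14 in deletion cells. Of the original calls, 2 of 49 higher genes and 2 of 51 lower genes were still called in control cells and 8 of 58 and 12 of 72 in deletion cells. Most higher genes kept their sign (47 of 49 and 58 of 58). Wnt10b went from 2.97 to 0.70 and from 2.79 to 0.55 and Fgf9 from 1.66 to 0.45 and from 1.57 to 0.36. Barx2 remained at 1.09 in the control (0.22 in the deletion library), and Cacna2d3 at 1.21 in the deletion library (0.53 in the control). Among the lower genes, Krt4, Ly6d and Krt6a turned to 0.34, 0.19 and 0.93 in the control and stayed below 0 with the deletion. The sub-clusters were drawn from the same genes, Edar left out, so this weighting also removes differences that the clustering used.

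**Figure D4:**
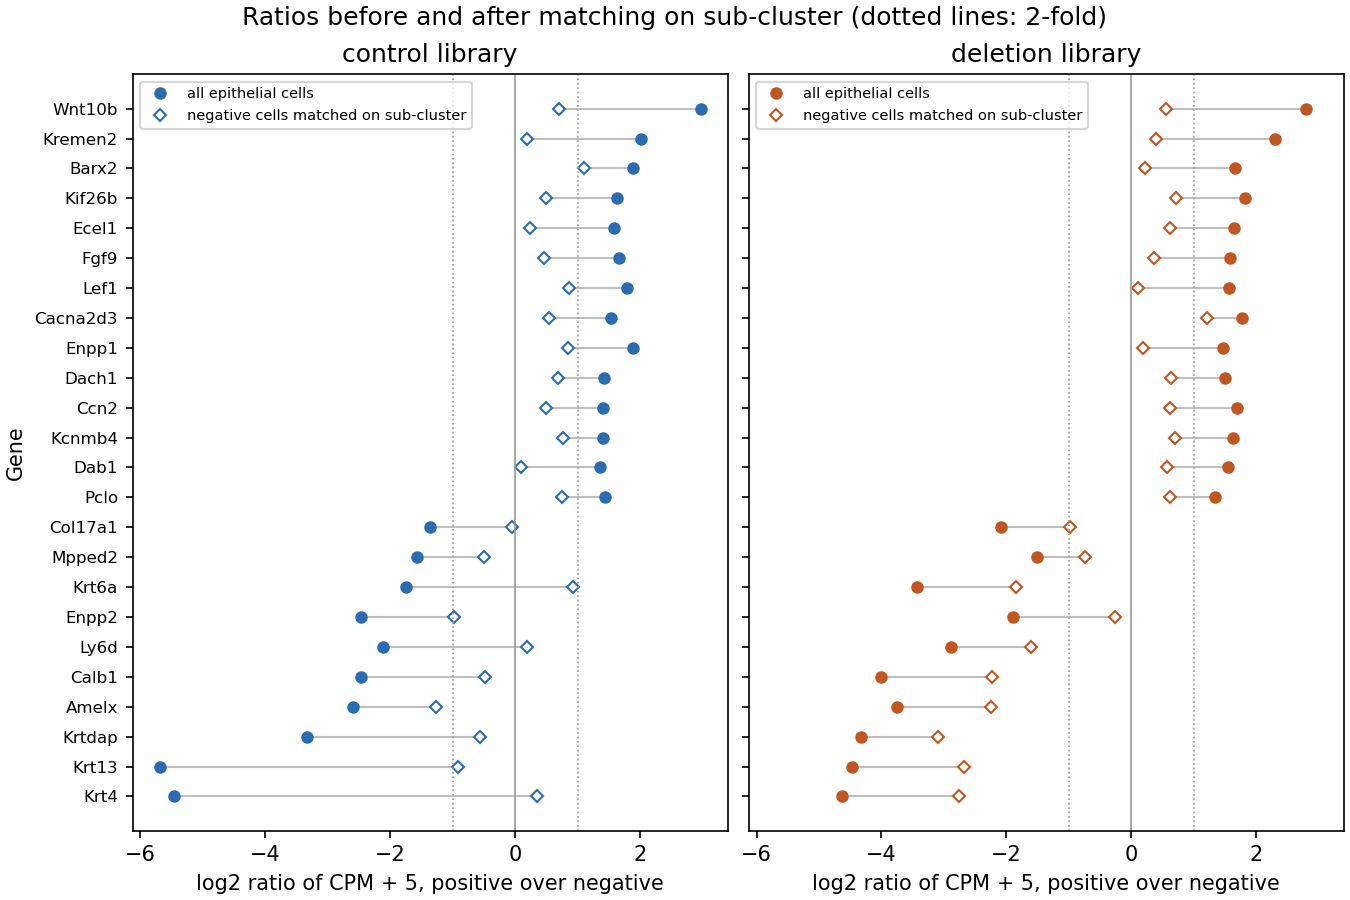
Log2 ratio of CPM + 5, Edar-positive over Edar-negative, for the same leading genes in the control (left) and deletion library (right), with all epithelial cells (filled circles) and with Edar-negative cells weighted to the same sub-cluster shares (open diamonds). Dotted lines mark 2-fold, and Wnt10b moves from 2.97 to 0.70 and from 2.79 to 0.55.

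Within the enamel knot-like sub-cluster itself, Wnt10b, Barx2 and Lef1 were higher in the Edar-positive cells of the control beyond their intervals, whereas Kremen2 and Shh had overlapping intervals. Wnt10b stood at 736 CPM (635 to 848) in control Edar-positive and 460 CPM (378 to 554) in control Edar-negative knot-like cells, and at 524 CPM (390 to 689) and 298 CPM (220 to 393) in the deletion library. The intervals did not overlap in control cells and overlapped slightly in deletion cells. Kremen2 had 198.5 and 196.5 CPM in control cells and 236 and 158 CPM in deletion cells, with overlapping intervals. Barx2 (323 and 113 CPM) and Lef1 (206 and 87.8 CPM) had intervals that did not overlap in the control, with the Edar-positive knot-like cells higher, and overlapping ones in the deletion library (267 and 237 CPM, and 267 and 219 CPM). Shh was at 1113 and 1020.3 CPM in control cells and at 1233 and 1093 CPM in deletion cells. Of the 15 Fgf4 UMIs of control Edar-positive cells, 12 lay in these cells. Ltb, which encodes lymphotoxin beta, had 18 of its 21 control UMIs and all 24 deletion UMIs here, but 1 deletion cell held 19 of the 24.

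Outside this sub-cluster the Edar-positive cells still differed. Fgf9 was at 125 CPM in Edar-positive and 43.4 CPM in Edar-negative cells of the control and at 139 and 54.3 CPM with the deletion, and Ccn2 at 128 and 50.3 CPM and at 182 and 53.7 CPM. Wnt10b outside the sub-cluster was at 56.3 CPM (49 UMIs) against 9.75 CPM in control cells and at 13.0 CPM (4 UMIs) against 7.01 CPM in deletion cells. Without the knot-like cells 29 genes were higher and 34 lower in control cells and 46 and 73 in deletion cells, and 22 of 49 and 30 of 58 of the original higher calls were among them. In sub-cluster 0, Fgf9 stood at 155 CPM in control Edar-positive cells and at 103 CPM over all its control cells. Ccn2 in sub-cluster 0 did not differ in this way in the control, at 127 and 135 CPM. In the deletion library Ccn2 stood there at 199 and 123 CPM. Fgf9 had 0 UMIs in Edar-positive cells of the outer enamel epithelium-like sub-cluster in both libraries, as had Shh.

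**Figure D5:**
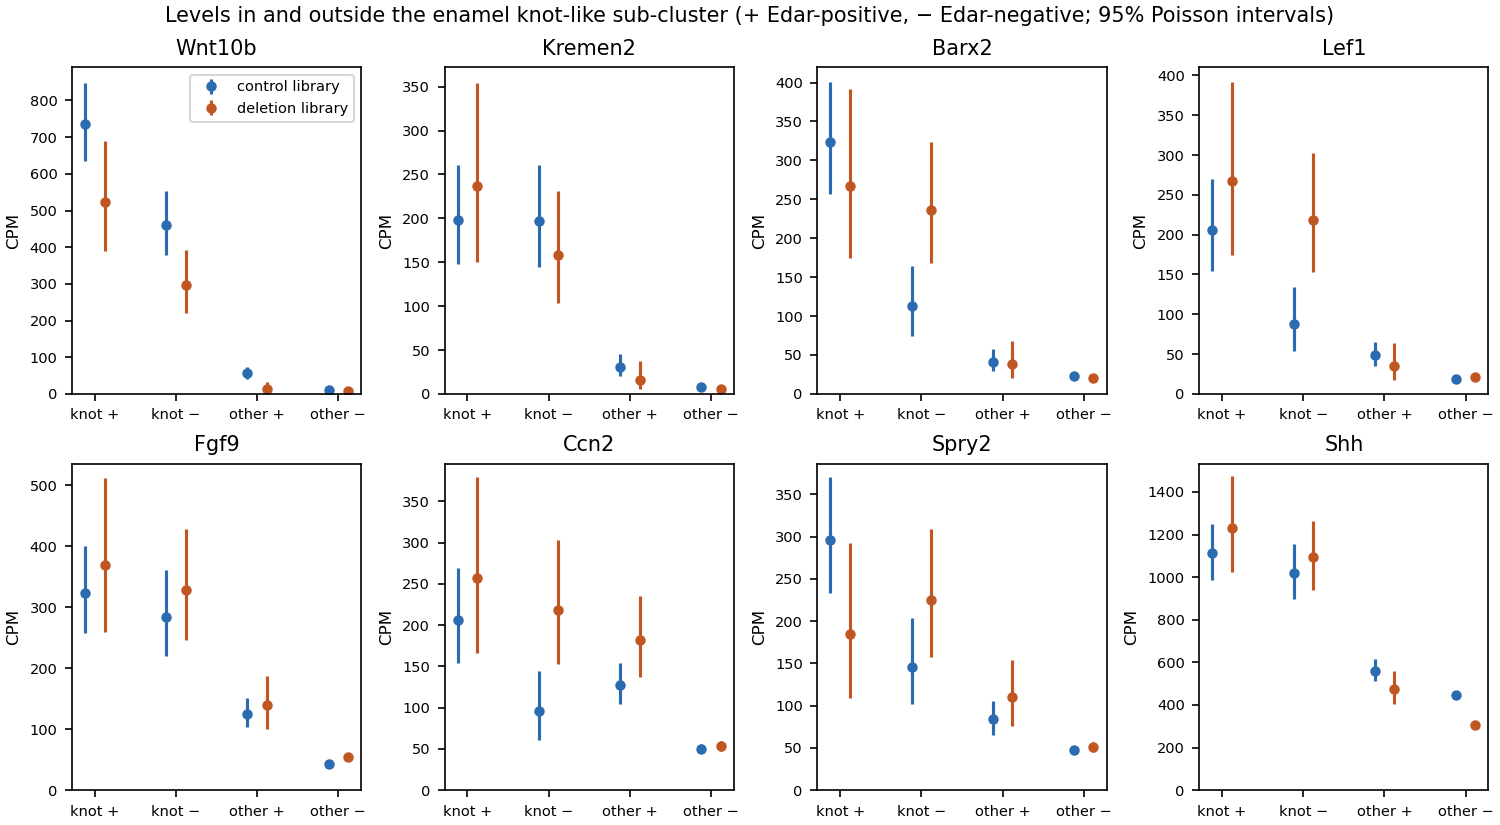
CPM with 95% Poisson intervals (vertical axes start at 0) for 8 genes in Edar-positive and Edar-negative cells in and outside the enamel knot-like sub-cluster, control in blue and deletion in orange. Wnt10b is concentrated in knot-like cells, whereas Ccn2 outside them is at 128 against 50.3 CPM and 182 against 53.7 CPM.

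Levels were also compared by the number of Edar UMIs, the same count that chose the cells. Cells with 2 or more had more Wnt10b than cells with 1, at 342 and 141 CPM in control cells and 276 and 76.9 CPM in deletion cells. Susd4, a complement-related membrane protein, was at 1108 and 654 CPM and at 1189 and 594 CPM. Kremen2 was at 96.3 and 54.6 CPM and at 92.1 and 59.4 CPM, with overlapping intervals in both libraries. Ccn2 in the deletion library was at 126 CPM (70.3 to 207) in cells of 2 or more and 231 CPM (178 to 293) in cells of 1. These intervals overlapped, and Ccn2 was nearly equal in the control (149.6 and 143 CPM). Cdkn1a was at 149.6 and 231 CPM in control cells and at 167 and 192 CPM in deletion cells. Aldh1a1, a retinaldehyde dehydrogenase that leads sub-cluster 0, was at 63.4 and 110.5 CPM in the control. The number of Edar UMIs was not separated from sub-cluster. Control Edar-positive cells had 122 Edar UMIs in 67 cells of the knot-like sub-cluster and 106 in 75 cells of sub-cluster 0. Their Wnt10b stood at 736 and 38.0 CPM. The part of sub-cluster in these levels was not tested.

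Edar-positive cells of the deletion library were then set against those of the control. Of 3661 genes 22 were higher (0.601%) and 26 lower (0.71%), while Edar-negative cells, which are more numerous, gave 7 higher (0.196%) and 4 lower (0.112%) of 3578. Of the EDA pathway, NF-kB and EDAR target lists, 6, 3 and 7 members reached 50 CPM and 0 were called. Wnt10b was at 211 and 136 CPM, a log2 ratio of -0.62 with a count ratio between 0.47 and 0.86, and in Edar-negative cells the log2 ratio was -0.44. Shh was at 687 and 658 CPM and Fgf9 at 170.3 and 195 CPM. Mt1, a metallothionein, was the most higher gene, at 10.6 and 148 CPM (log2 ratio 3.29), and it was also higher in Edar-negative cells, at 40.5 and 159 CPM (1.85). Cdk5rap3, a component of the ufmylation machinery, stood at 74.5 and 229 CPM (1.56), and at 99.95 and 190.1 CPM in Edar-negative cells.

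Several of the other genes with wide differences rested on few cells. Ltb was at 18.6 and 59.2 CPM (1.44), and without the top cell of each library the log2 ratio was -0.08. Tmem170 was at 15.1 and 59.2 CPM (1.68), with 18 of 24 deletion UMIs in 1 cell. Others were spread over more cells. Dhps was at 15.1 and 59.2 CPM (1.68), Heatr6 at 19.5 and 56.7 CPM, Camk1d at 54.1 and 140.5 CPM and Fhdc1 at 19.5 and 51.8 CPM. They had UMIs in 20.4%, 17.2%, 34.4% and 18.3% of deletion Edar-positive cells, against 3.23% for Ltb and 7.53% for Tmem170. Of the 22 higher genes, 12 were still at least 2-fold apart without the top cell of each library, and of the 26 lower genes 26 were. Lower genes were led by Mindy4 (122 and 14.8 CPM, log2 ratio -2.69), Acta2 (71.0 and 9.86 CPM), Odam (226 and 41.9 CPM), Calb1 (55.9 and 7.39 CPM), Krt6a, Slf1 (71.0 and 22.2 CPM), Hmox1 and Ramp2 (114 and 44.4 CPM). Mindy4, Acta2 and Odam had UMIs in only 11, 13 and 12 control cells, and Slf1 and Ramp2 in 53 and 89. Ddx3y, a Y-linked gene, was also lower (55.9 and 24.6 CPM, and 70.2 and 31.9 CPM in Edar-negative cells), and its part in the other differences was not tested. When control cells were weighted to the sub-cluster shares of the deletion cells, 19 of the 22 higher and 19 of the 26 lower genes were still called. After thinning to 2000 UMIs, 11 of the 22 and 7 of the 26 were, and with a stricter cell filter 16 and 15. With cells of at least 2 Edar UMIs alone, 13 of the 22 and 4 of the 26 were. There Mindy4, Odam, Hmox1 and Krt6a no longer lay below 0. In those cells Mindy4 and Odam each had 3 control UMIs and 1 deletion UMI, and Krt6a 2 and 1, too few to give a direction. Without the knot-like cells Tmem170 and Ltb turned to -0.31 and -0.76.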

How the data were processed

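Deposited whole-number UMI counts for each gene and barcode, not normalized by the authors, were read for 2 libraries (13990 and 16029 barcodes, 73375441 and 62158879 UMIs). Per the submitters' processing notes, STARsolo and mm10 were used. The STARsolo version is not given in the sources used here, nor the annotation or how barcodes were picked. Of the barcodes 13431 and 15487 passed the filter on genes and mitochondrial share. Doublets were called with Scrublet in scanpy 1.11.5 (178 and 240) and were removed only as an alternative. UMIs were summed per library and cell group and expressed as CPM. Intervals are exact Poisson for levels, Clopper-Pearson for shares and conditional binomial for count ratios. Log2 ratios use CPM + 5, which understates differences of low genes. The summing and calling step was tested on simulated data. Alternatives varied the pseudocount, the minimum level, cell weights, cell filters, doublets, the Edar threshold, depth, the clustering resolution and the matching of Edar-negative cells. Epithelial cells of both libraries were clustered together without Edar (2000 variable genes, 30 principal components, 15 neighbours, Leiden resolution 0.6), and a sub-cluster took a name only with at least 3 detected markers and a lead of 0.1 in score, and with no more markers of another class than of its own among its 10 leading genes. Edar itself was left out of counts of calls. Of 31253 features 48 share a symbol with another feature and were told apart by identifier.

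The 318 cells, the lists and the markers were chosen with earlier results of these data known. Named genes are the EDA pathway list, the 15 most higher and 10 most lower of the genes called in both libraries, listed genes called in both, the 8 most higher and 8 most lower genes between libraries, further listed genes by level and leading genes of sub-clusters. Cdkn1c, Lfng, Fzd3, Notch1, Cdh3, Satb1, Ddx3y, Xist, Susd4, Atf3 and genes of low level given with their UMIs were added after their values were seen. Some genes that the rule would name are not reported here. Promoters come from RefSeq on GRCm38.p6.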

Additional observations from a re-analysis of the deposited data

Results flagged for a closer look

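Both genes below had count ratios on opposite sides of 1 in the libraries, with both intervals excluding 1, and the difference between the libraries was not tested because each group is 1 library. Atf3, a stress-induced transcription factor, stood at 141 CPM in control Edar-positive cells and 44.0 CPM in control Edar-negative cells (log2 ratio 1.58), and at 59.2 and 94.6 CPM in the deletion library (-0.63). In the control 34 Edar-positive cells held its 159 UMIs, with 36 in 1 cell, and in the deletion library 14 cells held 24. Odam, an ameloblast and junctional epithelium gene, stood at 226 and 167 CPM in the control (0.43) and at 41.9 and 114 CPM in the deletion library (-1.34). Its 255 control UMIs lay in 12 Edar-positive cells, with 100 in 1 cell, and its 17 deletion UMIs in 5 cells. Without the cell of most UMIs the log2 ratios of Atf3 were 1.23 and -0.99, and those of Odam -0.26 and -2.11.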

How the results depend on the processing

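The share of Edar-positive cells depended on depth and on the epithelial sum. In the control it was 7.13% after thinning to 2000 UMIs and 9.11% with an epithelial sum of at least 10 UMIs. With the deletion it was 4.08% after thinning. Counts of genes higher and lower moved as follows, control first. With no minimum level they were 121 and 209 (control), 224 and 289 (deletion), and 152 and 158 between Edar-positive cells of both libraries. With an Edar threshold of 2 UMIs they were 108 and 134, 230 and 169, and 121 and 120. After thinning they were 84 and 120, 255 and 125, and 136 and 80. These settings keep fewer UMIs or add genes of low level. With Edar-negative cells matched on sub-cluster they were 7 and 2, and 10 and 14. With the stricter cell filter 111 were lower in the deletion library, and 46 were higher and 75 lower between libraries. Equal cell weights gave 46 and 46 between libraries, and a pseudocount of 1 CPM gave 40 lower. Without the enamel knot-like sub-cluster, an alternative chosen after seeing the data, 29 were higher in the control and 59 lower between libraries. The cause of the other moves was not tested.

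Of 710 values of named genes under alternatives, 618 kept direction and call, 82 lost the call and 10 reversed. Reversed in the control with matched sub-clusters were Krt4 (0.34), Ly6d (0.19) and Krt6a (0.93). Between libraries, without the knot-like sub-cluster, Tmem170 (-0.31) and Ltb (-0.76) reversed. With an Edar threshold of 2 UMIs Mindy4, Odam and Hmox1 (0.0851 each) and Krt6a (0.41) reversed, and after thinning Calb1 (0.20). At that threshold Mindy4 and Odam each had 3 control UMIs and 1 deletion UMI, and Krt6a 2 and 1, too few to give a direction. The cause was not tested.

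No paired analysis was possible because each group is 1 library and the groups share a single replicate number. Depth limits the deletion library most, where the Edar-positive cells held 405709 UMIs against 1127375 in the control.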

Other observations

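Apart from the lists, Edar-positive cells of both libraries had higher levels of Susd4 (813 against 355 CPM and 769 against 328 CPM), Cdh6, a cadherin (169 against 64.1 CPM and 128 against 52.0 CPM), Nrp2, a semaphorin and VEGF receptor (131 against 63.0 CPM and 148 against 51.5 CPM), Eya2, a transcriptional co-activator (59.4 against 27.2 CPM and 86.3 against 31.6 CPM), and Gadd45g, a growth arrest gene (111 against 42.8 CPM and 126 against 55.2 CPM). Megf11 reached 50 CPM in the deletion library alone but had log2 ratios of 2.29 in control cells and 2.81 in deletion cells. These genes were named after their values were seen.

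Immediate early and heat shock genes had a median log2 ratio of 0.42 in control cells and -0.04 in deletion cells over 22 measured genes. In control cells 16 reached 50 CPM, of which Atf3 was called higher, and in deletion cells 18 reached it and 0 were called. Over all genes at that level 1.31% and 1.58% were higher and 1.37% and 1.96% lower.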
